A study of Mus musculus with 7 samples.

Results

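Isyna1, Obp2a and Ly6d are 3 genes of the mouse whose liver RNA was far more abundant in mice with an induced leukemia inhibitory factor (LIF) transgene than in controls. They were picked by symbol from the 23594 genes of the deposited table. They are among its largest rises in this very contrast and were taken to be little known in liver. The differences between the groups are therefore given as a description without a test. All 3 genes passed the minimum on low values, a mean of 10 normalized counts over the livers, which 13145 genes reached. For Obp2a and Ly6d this mean came from 1 group alone. The same holds for some list genes below, among them Ly6c1, Plaur, Miox, Krt4, S100a8, Retnlg, Cyp2g1, Mup2, Mup12 and Ctrb1.

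The study asked how a raised level of LIF changes gene expression in the liver. TgL mice carry mouse Lif with eGFP in the Rosa26 locus behind a CAG promoter and a transcriptional STOP cassette. TgLC mice carry the same allele together with R26-CreERT2, a tamoxifen-inducible Cre that the Rosa26 locus drives in all tissues, so the transgene was not confined to the liver. Both groups were 8 weeks old when they received tamoxifen by a single intraperitoneal injection, at 32 µg per g for females and 64 µg per g for males, so tamoxifen is shared by all livers and Cre by the TgLC group only. No group carried the Cre without the Lif allele among the livers analysed here, and the day of liver collection and the sex of each mouse were not given in the labels. Poly-A RNA of 3 TgL livers and 4 TgLC livers was sequenced, 1 library per mouse.

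Isyna1 encodes inositol-3-phosphate synthase, which turns glucose 6-phosphate into inositol 3-phosphate and so makes the starting compound for inositol synthesis. Inositol is the head group of phosphatidylinositol and the base of the inositol phosphates. Obp2a, also listed as Lcn13, encodes a small secreted lipocalin, a family of cup-shaped proteins that carry lipids, odorants and other hydrophobic molecules. Ly6d encodes a small protein of the Ly6/uPAR fold that is held on the cell surface by a glycosylphosphatidylinositol (GPI) anchor, and it is best known as a marker of B-lineage lymphoid progenitors and of stratified epithelia such as skin. LIF itself is a cytokine of the interleukin-6 family that signals through gp130, JAK kinases and STAT3, the route by which hepatocytes raise acute-phase genes.

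The start regions of Isyna1 and Obp2a are shown, and none was available for Ly6d, whose start region was not examined. The 2 regions differ in the letters that commonly mark a promoter class. Each runs from 250 bases before to 50 bases after the RefSeq gene start of build GRCm38.p6, 5′ to 3′ on the strand of the gene, with CG dinucleotides and the TATAAA hexamer in capitals. The window of Isyna1 is chr8:70594231-70594530 on the plus strand and that of Obp2a is chr2:25699824-25700123 on the plus strand.
Isyna1: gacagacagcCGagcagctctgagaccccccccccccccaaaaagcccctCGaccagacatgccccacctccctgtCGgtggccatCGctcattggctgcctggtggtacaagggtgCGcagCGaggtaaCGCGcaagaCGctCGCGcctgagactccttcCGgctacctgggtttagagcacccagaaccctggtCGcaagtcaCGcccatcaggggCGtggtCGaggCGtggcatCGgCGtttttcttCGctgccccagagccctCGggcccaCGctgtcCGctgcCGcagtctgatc
Obp2a: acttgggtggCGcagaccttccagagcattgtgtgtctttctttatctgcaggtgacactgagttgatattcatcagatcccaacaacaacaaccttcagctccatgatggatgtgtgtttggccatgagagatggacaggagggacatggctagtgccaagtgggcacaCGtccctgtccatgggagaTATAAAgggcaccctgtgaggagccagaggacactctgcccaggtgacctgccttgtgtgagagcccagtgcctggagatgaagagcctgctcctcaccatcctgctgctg

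The Isyna1 window held 24 CG dinucleotides, more than 80.0% of the 32851 promoter windows, whose median was 7. Its G and C content of 66.0% was above that of 83.8% of the windows. The Obp2a window held 2 CG dinucleotides, more than 14.1% of the windows, and 1 TATAAA that began 61 bases before the gene start. TATAAA occurred on either strand in 13.6% of all windows and not in that of Isyna1. Of 2 further motifs searched on both strands, TTCNNNGAA, the letters bound by STAT factors, occurred in 8.30% of all windows, and TTNNGNAA, the core letters of the C/EBP motif, in 40.7%, and neither occurred in either window shown. These counts describe letters in 300 bases and not binding.

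Library depth was 9367681 to 11030699 reads in genes for TgL and 11325974 to 12448961 for TgLC livers. Alb, the main plasma protein of hepatocytes, was between 550874 and 992652 normalized counts in every liver, and Lif itself was at 0.894, 1.99 and 0 in TgL and at 10, 12.3, 10.1 and 25.0 normalized counts in TgLC livers. Xist was at 3521 to 9246 in all 7 livers, and 4 Y-linked genes were at 10.2 or less in each. This is the pattern of female mice, although the labels give no sex. Across all genes tested, 4104 passed an adjusted p of 0.05 (limma, Benjamini-Hochberg over all genes tested), which is 31.2%, with 2127 higher (16.2%) and 1977 lower (15.0%) in TgLC. Scaling by library totals moved this split to 1177 higher and 4275 lower, with the median log2 difference of all genes at -0.30 rather than 0.00. Of 10 hepatocyte markers, all tested, 3 rose and 2 fell, so 50% were called against 31.2% of all genes. Ttr fell by 0.91 and Apoa2 by 0.87 on the log2 scale, and Fga rose by 2.56. The calls of Hnf4a and Serpina1a, which also rose, were lost in 9 and 8 of 14 alternatives. Nothing in the labels says that mice were littermates or processed together, but 4 of the livers, TgL 1 and 2 and TgLC 1 and 2, have mouse numbers in one run, 8264 to 8270. The exocrine pancreas list (13 genes) stood apart from the liver genes: all 10 members tested fell, with a summed level of 749 to 1172 normalized counts in TgL and 39.0 to 53.6 in TgLC livers, so pancreas markers moved with genotype, and their part in the results below was not tested. Fewer cells of a type and less RNA per cell cannot be told apart in such bulk RNA.

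Isyna1 (ENSMUSG00000019139) had 167, 89.6 and 62.2 normalized counts in TgL 1, 2 and 3. In TgLC 1, 2, 3 and 4 it had 8260, 8312, 15697 and 9255 normalized counts. The groups were far apart, since the lowest TgLC liver was 49.4-fold above the highest TgL liver, and the TgLC livers agreed closely but for TgLC 3, which was 1.82-fold above the mean of the other TgLC livers. The means were 106 ± 54.5 (SD, n = 3) and 10381 ± 3573 (SD, n = 4), a ratio of 97.6. The ratio taken from the reads alone, 338 against 41131, was 95.3 with a 95% counting interval of 85.6 to 106.4, which covers counting error only. On the log2(normalized count + 1) scale the difference was 6.66 (SE 0.33).

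Obp2a (ENSMUSG00000062061) was nearly undetected in controls, with 2.68, 0 and 0 normalized counts in TgL 1, 2 and 3, which are 3, 0 and 0 reads. A count of 0 allows up to 2.99 normalized counts in TgL 2 and 3.06 in TgL 3, the level of 3 reads. In TgLC 1, 2, 3 and 4 it had 83, 106, 366 and 200 normalized counts. The lowest TgLC liver, TgLC 1, was 30.9-fold above TgL 1, and TgLC 3 was 4.41-fold above TgLC 1, the widest spread of the 3 genes. The means were 0.894 ± 1.55 (SD, n = 3) and 189 ± 129 (SD, n = 4). The ratio from reads, 3 against 749, was 196, and its 95% counting interval of 66.6 to 950.2 shows how little the control reads fix it. The log2 difference of 6.70 (SE 0.62) depends on the pseudocount for the same reason, being 4.84 with a pseudocount of 5 and 7.43 with 0.5.

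Ly6d (ENSMUSG00000034634) had 12.5, 2.99 and 7.14 normalized counts in TgL 1, 2 and 3, which are 14, 3 and 7 reads. In TgLC 1, 2, 3 and 4 it had 716, 407, 1014 and 821 normalized counts. Again no TgLC liver came near a control, and the lowest, TgLC 2, was 32.5-fold above TgL 1. The means were 7.55 ± 4.78 (SD, n = 3) and 740 ± 254 (SD, n = 4), a ratio of 98.0. The ratio from reads, 24 against 2936, was 95.8 with a 95% counting interval of 64.3 to 149.8, and the log2 difference was 6.53 (SE 0.42). That all 3 genes have groups that do not overlap follows from their choice, and 21.1% of all genes tested were higher in every TgLC than in every TgL liver.

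**Figure D1:**
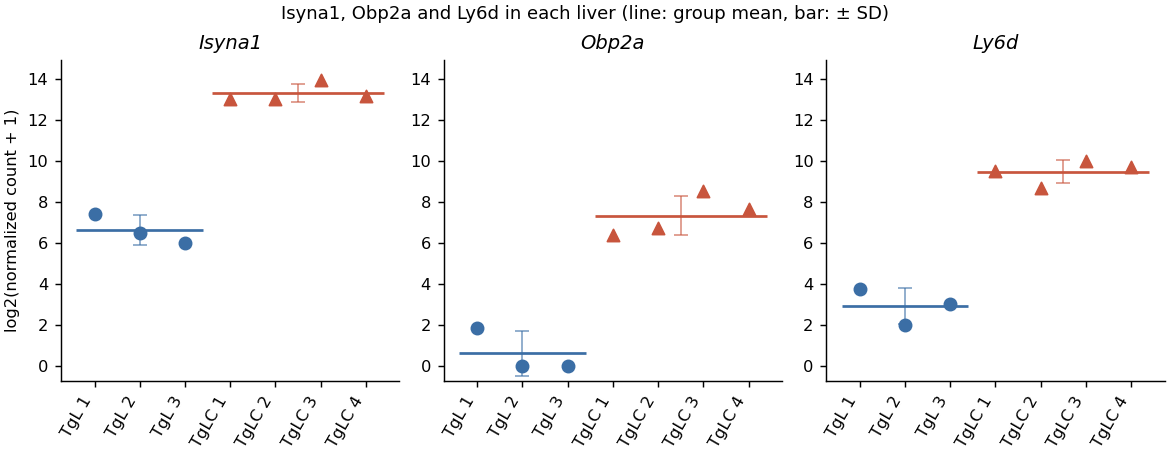
Log2(normalized count + 1) of Isyna1, Obp2a and Ly6d in each liver. Points are single livers, horizontal lines are group means and vertical bars are ± SD, and for each gene the 4 TgLC livers sit above all 3 TgL livers, with TgLC 3 the highest.

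Ranked by the log2 difference among the 13145 genes tested, Obp2a stood at place 8, Isyna1 at 9 and Ly6d at 10. Above them were A2m (9.56), Saa2 (8.56), Saa1 (8.10), Sfrp5 (8.09), Slc10a6 (7.11), Lcn2 (7.09) and 9530077C05Rik (6.80), where A2m, the Saa genes and Lcn2 encode secreted acute-phase proteins. Just below them came Serpina3c at 6.26. The largest and the smallest of the 3 differences were 0.17 apart, less than the standard error of any of them, so their order is not resolved. Over 15 settings of the processing, the place of Isyna1 varied from 5 to 15, that of Obp2a from 5 to 22 and that of Ly6d from 7 to 17.

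**Figure D2:**
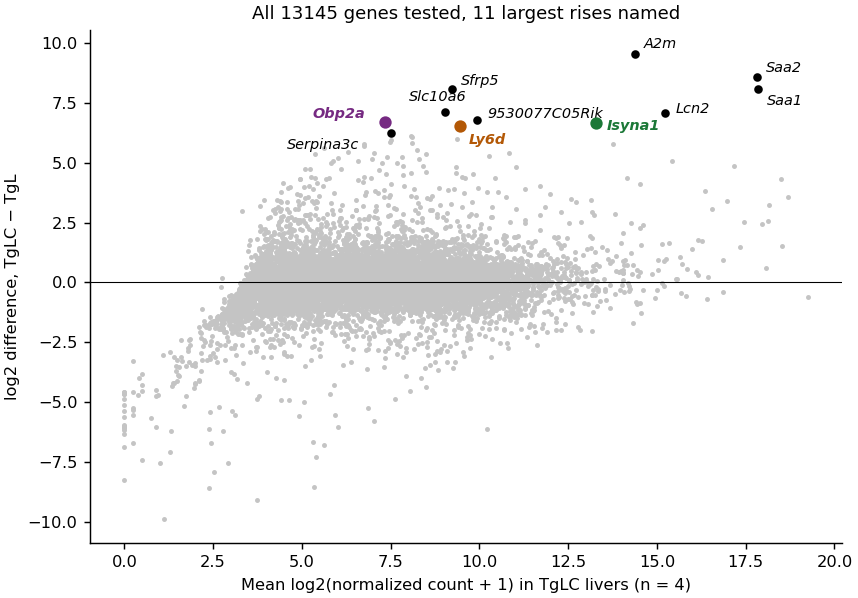
Log2 difference between TgLC and TgL livers against the mean log2(normalized count + 1) in TgLC livers for all 13145 genes tested. The named points are the 11 largest rises, among which Isyna1 lies farther right than Obp2a and Ly6d at nearly the same height.

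The same difference led to different places in the transcriptome. By reads, Isyna1 ranked 6031, 8037 and 9061 of 23594 genes in TgL livers and 129, 125, 89 and 114 in TgLC 1 to 4. Obp2a ranked 15747, 19796 and 20054 in TgL and 8510, 7708, 3608 and 5635 in TgLC livers. Ly6d ranked 12518, 15346 and 13731 in TgL and 1662, 3070, 1294 and 1533 in TgLC livers. Isyna1 thus stood among the transcripts with most reads in TgLC livers, and Ly6d and Obp2a ranked higher in every TgLC than in any TgL liver but below Isyna1.

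Levels of different genes can be compared only per length, so reads per kilobase of annotated exon were scaled to the same sum in every liver over the 22679 genes with a length, as in TPM. On this TPM-like scale Isyna1, with 2436 exon bases, was at 750, 777, 1306 and 797 in TgLC 1 to 4. Ly6d, with 744 exon bases, was at 213, 125, 276 and 232. Obp2a, also with 744 exon bases, was at 24.7, 32.6, 99.8 and 56.5. In each TgLC liver the order was therefore Isyna1, Ly6d, Obp2a, with no overlap of the ranges. In TgL livers the same order held, with Isyna1 at 18.4, 10.2 and 7.22, Ly6d at 4.52, 1.12 and 2.71 and Obp2a at 0.969, 0 and 0. The per-length ranks in TgLC livers were 84 to 125 for Isyna1, 314 to 595 for Ly6d and 805 to 2672 for Obp2a. The exon lengths come from GENCODE M21, which may not be the annotation that the authors counted with.

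The TgLC livers did not carry the 3 transcripts evenly. TgLC 3 was highest and TgLC 4 second for each gene, and TgLC 1 and 2 were the lowest pair. TgLC 3 and 4 also stand apart in other ways, since their titles follow another naming scheme without a mouse number and they had 18169 and 18604 genes with a read against 19795 to 20215 in the other 5 livers, and the part of this in the spread was not tested. TgL 1 was the highest control for each gene. The coefficient of variation over the TgLC livers was 34.4% for Isyna1, 34.3% for Ly6d and 68.0% for Obp2a. Set against the 500 genes of nearest level in TgLC livers, the SD of the log2 values was 0.44 for Isyna1, above 88.8% of them, 0.56 for Ly6d, above 92.0%, and 0.96 for Obp2a, above 99.2%, where the median SD of such genes was 0.21 to 0.23. The 3 genes were thus among the more variable genes of their level within the TgLC group. Their SD was not set against that of other genes with rises of like size.

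The run of mouse numbers coincides with part of this spread. Within the 4 livers of the run, the mean of Isyna1 was 128 in TgL and 8286 in TgLC, a ratio of 64.5. The corresponding means were 1.34 and 94.7 for Obp2a and 7.75 and 562 for Ly6d, a ratio of 72.5. Outside the run the only TgL liver, TgL 3, had 62.2 Isyna1 counts against a mean of 12476 in TgLC 3 and 4, 0 Obp2a counts against 283, and 7.14 Ly6d counts against 918. The groups thus did not overlap within the run either, while the size of the difference is smaller there, and with 1 control liver outside it the spread has no replicate check.

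The genes whose profiles over the 7 livers were most like the 3 included the other 2 each time. This follows largely from their choice, because they were picked for rises that turned out nearly equal. Likeness was the root mean square difference of log2(normalized count + 1) after each gene's own mean was removed. It depends mostly on the size of the group difference, so it is a description. Of the 13145 genes tested only those with ordinary symbols were searched, which left out 9530077C05Rik. For Isyna1 the nearest were Lcn2 (0.452), Obp2a (0.465), Ly6d (0.496), Atp6v0a4 (0.550) and Orm2 (0.563). For Obp2a they were Isyna1 (0.465), Ly6d (0.569), Prtn3 (0.689), Lcn2 (0.746) and Orm2 (0.860). For Ly6d they were Isyna1 (0.496), Obp2a (0.569), Prtn3 (0.583), Orm2 (0.590) and Lcn2 (0.639). Lcn2 encodes lipocalin 2, an iron-siderophore binder, and Orm2 an acid glycoprotein of plasma. Atp6v0a4 encodes a subunit of the vacuolar proton pump, and Prtn3 the granule protease proteinase 3.

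Of these, Prtn3 was also highest in TgLC 3. Its normalized counts were 12.5, 4.98 and 12.2 in TgL and 422, 568, 1525 and 502 in TgLC 1 to 4. Lcn2 was not, at 597, 222 and 165 in TgL and 43272, 38211, 34253 and 38383 in TgLC, where TgLC 3 was the lowest TgLC liver. Orm2 was highest in TgLC 3 by a smaller margin, at 16099 there, and was at 14088 ± 1714 (SD, n = 4) in TgLC and 261 ± 66.9 (SD, n = 3) in TgL livers.

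**Figure D3:**
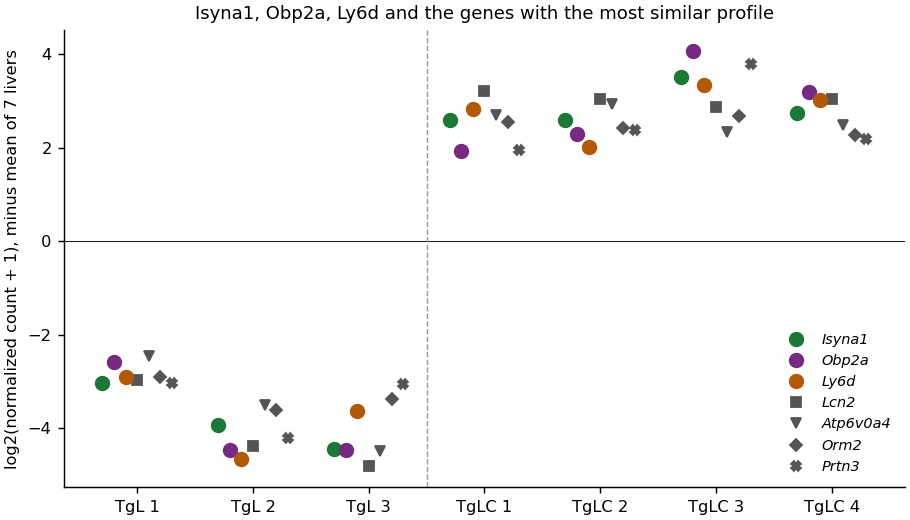
Log2(normalized count + 1) of the 3 genes and of the 4 genes nearest to them, each minus its mean over the 7 livers, by liver. Isyna1, Obp2a, Ly6d, Prtn3 and Orm2 have their highest point in TgLC 3, while Lcn2 and Atp6v0a4 have their lowest TgLC point there.

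Reads of neighbouring or near-identical genes could enter such values. No gene of GENCODE M21 overlaps any of the 3 genes on either strand. Of the distinct 50-base words in their transcripts, none of 2757 for Isyna1 and none of 695 for Ly6d occurs in another gene, whereas 81 of 695 for Obp2a (11.7%) also occur in Obp2b, which was not analysed here. How the counting treated reads that fit both was not stated in the labels or methods, so a part of the Obp2a reads is uncertain. For Isyna1, 3 of the 6 genes next to it on chromosome 8 rose (limma, adjusted over all genes tested), where 16.2% of all genes tested were called higher. Ssbp4, its nearest neighbour on the right and on the opposite strand, went from 30.6 to 322 normalized counts (log2 difference 3.31, SE 0.29, adjusted p 6.5e-05). Gdf15, a stress-induced cytokine that curbs appetite, went from 51.7 to 582 (3.86, SE 0.57, adjusted p 0.0012), and Ell, an elongation factor of RNA polymerase II on the left, from 332 to 651 (0.95, SE 0.18, adjusted p 0.0040). Fkbp8, Kxd1 and Lrrc25 did not pass, at 0.13, -0.36 and 0.36, and Fkbp8 turned negative under library totals and within the run of mouse numbers. The strand setting of the counting was not stated either, so it is not known whether reads of such opposite genes were told apart by strand. For Obp2a, 1 of the 6 neighbours was tested, Bmyc, at a log2 difference of 1.78 (adjusted p 0.077), and it passed with edgeR, with DESeq2 and without TgLC 1. For Ly6d, 1 of the 6 was tested, Lynx1, at 0.71 (adjusted p 0.23), which passed only within the run of mouse numbers.

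The other genes of inositol metabolism include both risers and fallers. Over 4 lists of inositol genes with 45 names, 39 genes other than Isyna1 were tested, of which 6 rose, 7 fell and 26 did not pass, so 33.3% were called against 31.2% of all genes, and their median log2 difference was 0.01 against 0.00. Impa1, the monophosphatase that completes inositol synthesis after Isyna1, fell from 777 ± 24.3 (SD, n = 3) to 519 ± 40.1 (SD, n = 4) normalized counts (log2 difference -0.58, adjusted p 0.0037). Its paralog Impa2 was at 38.2 in TgL and 19.6 in TgLC livers without passing (-1.15, adjusted p 0.087). Minpp1, which strips phosphates from highly phosphorylated inositols, rose from 292 to 515 (0.81, adjusted p 0.0086). Impad1, a phosphatase of the superfamily of Impa1, rose by 0.34 (adjusted p 0.042). This call was lost in 8 of 14 alternatives, among them leaving out any 1 liver other than TgLC 3.

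Uptake and breakdown of inositol were represented by 2 tested genes. Slc5a3, the sodium-driven inositol transporter, had 88.5, 117 and 57.1 normalized counts in TgL and 43.0, 35.8, 18.2 and 24.0 in TgLC livers. It fell by 1.52 on the log2 scale (adjusted p 0.0097), with the call lost without TgL 2 (adjusted p 0.0502). Miox, the oxygenase that opens the inositol ring and commits it to breakdown, was at 1.79, 0 and 2.04 in TgL and at 9.0, 24.6, 17.2 and 42.1 in TgLC livers. It rose by 3.38 (adjusted p 0.0042) in a range of few reads.

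Among the inositol phosphate kinases 9 genes were tested. Itpkb, which phosphorylates inositol trisphosphate, fell by 1.11 (adjusted p 0.0030), Ipmk fell by 0.45 (adjusted p 0.032) and Ppip5k2 rose by 0.69 (adjusted p 0.016). The Ipmk call was lost without TgL 1, TgL 2, TgLC 2 or TgLC 3, and that of Ppip5k2 under library totals and without TgL 1. Of 21 genes of phosphatidylinositol synthesis and phosphorylation 2 rose and 3 fell. Cdipt, the enzyme that joins inositol to the lipid, rose by only 0.38 (adjusted p 0.026) a call lost under library totals, within the run of mouse numbers and without any 1 of the TgL livers, and Cds2, which makes its lipid partner CDP-diacylglycerol, fell by 0.65 (adjusted p 0.0019). Pik3c2b fell by 0.79 (adjusted p 0.011), Pik3c3 by 0.45 (adjusted p 0.022), and Pip4k2a rose by 0.96 (adjusted p 0.022). The Pik3c3 call was lost without TgLC 2 or any 1 TgL liver, and that of Pip4k2a under library totals and without TgL 1 or TgL 2.

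Glucose 6-phosphate, from which the synthase starts, is handled by 13 tested genes, of which 3 rose, 2 fell and 8 did not pass, so 38.5% were called against 31.2% of all genes, with a median log2 difference of -0.20. Pgm2, a phosphoglucomutase, rose from 57.2 to 165 normalized counts (log2 difference 1.51, adjusted p 8.8e-05). H6pd, which oxidises glucose 6-phosphate in the endoplasmic reticulum, rose from 4088 to 9773 (1.25, adjusted p 0.00024) and Hk1, a hexokinase that is low in hepatocytes, from 48.5 to 108 (1.10, adjusted p 0.0090). Gpi1, which converts glucose 6-phosphate to fructose 6-phosphate, fell by 0.76 (adjusted p 0.0047).

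Of the lipocalins, the family of Obp2a, most that could be tested differed between the groups. Of 25 names 12 were in the table, and 9 were tested, and of these 6 rose and 2 fell, so 88.9% were called against 31.2% of all genes, with a median log2 difference of 2.18. The risers include acute-phase plasma proteins of hepatocytes. Orm1 went from 6007 ± 282 (SD, n = 3) to 84839 ± 11346 (SD, n = 4) normalized counts (log2 difference 3.81, adjusted p 1.7e-06). Orm2 rose by 5.77 (adjusted p 4.9e-07) and Lcn2 by 7.09 (adjusted p 4.5e-06), the 1 lipocalin with a larger difference than Obp2a. Ambp, the precursor of alpha-1-microglobulin and bikunin, rose by 1.79 (adjusted p 6.7e-05), Orm3 by 3.35 (adjusted p 5.9e-06) and Ptgds, a prostaglandin D synthase, by 2.18 (adjusted p 0.014). C8g, the lipocalin chain of complement C8, fell by 1.24 (adjusted p 0.013). Rbp4, the retinol carrier, fell by 0.79 (adjusted p 0.048), which was lost with no filter and without TgL 1, TgL 2, TgLC 1, TgLC 2 or TgLC 4, and Apom was at -0.25 (adjusted p 0.14). Lcn5, a neighbour of Obp2a on chromosome 2, stayed under the minimum, and its neighbours Lcn6, Lcn10, Obp2b and Lcn3 were not among the genes with values.

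The major urinary proteins are lipocalins too, kept apart because their near-identical copies can share reads. None of the 16 tested rose and 13 fell, where 15.0% of all genes tested were called lower. Mup2, Mup10, Mup12, Mup18 and Mup19 reached the minimum through TgL livers alone, so the filter had a part in this share. Mup3 fell from 28813 ± 725 (SD, n = 3) to 7559 ± 2464 (SD, n = 4) normalized counts (log2 difference -1.98, adjusted p 0.00030). Mup2 had 61.7, 35.8 and 51.0 normalized counts in TgL and 1.00 to 4.01 in TgLC livers, and Mup12 had 619, 66.7 and 713 in TgL and 0 in every TgLC liver.

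In the Ly6/uPAR family, 8 of 24 genes in the table were tested besides Ly6d, of which 4 rose and 1 fell. This is 62.5% called against 31.2% of all genes, with a median log2 difference of 0.65. Of the risers, Ly6c1 and Plaur reached the minimum through TgLC livers alone, so the filter had a part in this share. Ly6a, the surface antigen Sca-1, had 144, 149 and 191 normalized counts in TgL and 819, 915, 297 and 1100 in TgLC livers. It rose by 2.13 (adjusted p 0.0037). Ly6c1, an antigen of endothelial and blood cells, had 8.05, 2.99 and 5.10 in TgL and 195, 153, 19.2 and 369 in TgLC livers, and rose by 4.34 (adjusted p 0.0048). Both were lowest of the TgLC livers in TgLC 3, where Ly6d was highest.

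Plaur, the urokinase receptor, rose from 5.24 to 26.5 (2.20, adjusted p 0.0021), and Ly6e rose by 0.60 (adjusted p 0.023). Cd59b, an inhibitor of complement lysis, fell by 1.39 (adjusted p 0.014), lost without TgL 2 and without TgL 3. Cd59a was at -0.44 (adjusted p 0.087) and Gpihbp1, which holds lipoprotein lipase on capillaries, at -0.12 (adjusted p 0.56). Ly6k, near Ly6d on chromosome 15, stayed under the minimum.

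The GPI anchor that Ly6d carries is made by 28 tested genes, of which 4 rose and 2 fell (21.4% called against 31.2% of all genes, median log2 difference 0.14). Piga, a catalytic subunit of the first enzyme, rose by 0.97 (adjusted p 0.0095) and Pigf by 0.95 (adjusted p 0.013), the latter lost under library totals and without TgL 1. Pgap1, which removes an acyl chain from the finished anchor, fell by 0.83 (adjusted p 0.0030).

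**Figure D4:**
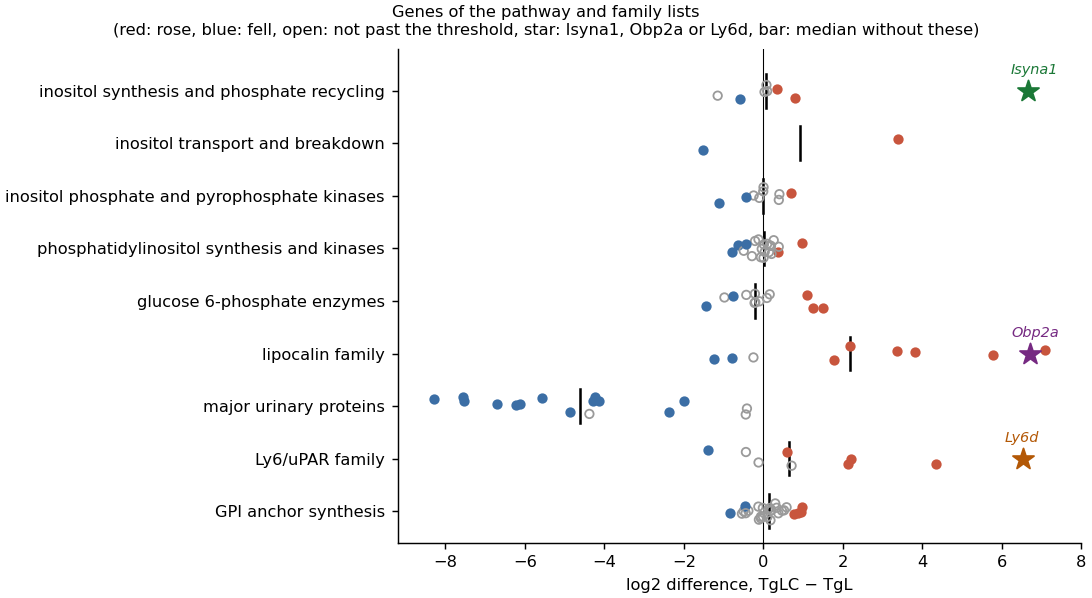
Log2 difference between TgLC and TgL livers of each tested gene in the inositol, glucose 6-phosphate, lipocalin, urinary protein, Ly6/uPAR and GPI anchor lists. Isyna1 at 6.66 and Ly6d at 6.53 lie beyond every other tested gene of their lists, while Obp2a at 6.70 lies beside Lcn2 at 7.09.

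Ly6d is known from cell types other than hepatocytes, so the markers of those cells are given beside it. Of 16 B cell and plasma cell markers in the table, 6 were tested, and Sdc1, which hepatocytes also express, was the only one to rise (0.87, adjusted p 0.0059). This is 16.7% called against 31.2% of all genes. The summed level of the list was 2533 to 3889 normalized counts in TgL and 4355 to 5842 in TgLC livers and was nearly all Sdc1. Cd79a, a chain of the B cell receptor complex, was at 8.94, 6.97 and 5.10 in TgL and at 0 to 8.19 in TgLC livers, and Vpreb1 and Vpreb3 had means below 1 in both groups. Cd79a was thus low in every liver of both groups. Of 6 plasmacytoid dendritic cell markers 2 were tested and 1, Bst2, fell by 0.89 (adjusted p 0.012), a call lost without TgL 2. No T or NK cell marker reached the minimum.

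Of 11 markers of stratified epithelium and urothelium in the table, 3 were tested and 1 rose. This is 33.3% called against 31.2% of all genes. The list sum was 998 to 1175 normalized counts in TgL and 873 to 1489 in TgLC livers. The riser was Krt4, a keratin of mucosal epithelia, at 1.79, 0 and 1.02 in TgL and 67.0, 87.0, 124 and 23.0 in TgLC livers (log2 difference 5.20, adjusted p 0.00030). Its highest liver, TgLC 3, was that of Ly6d, but its lowest, TgLC 4, was second for Ly6d. The basal keratins Krt14 and Krt15 were at 0 to 1.99 in every liver, and Trp63 was at 0 in all TgL and at 1.01 to 10 in TgLC livers. Of 8 bile duct markers 5 were tested, of which 20% were called. The list sum was 499.7 to 662 normalized counts in TgL and 818 to 2065 in TgLC livers. Sox9 rose, from 30.7 ± 12.3 (SD, n = 3) to 478 ± 121 (SD, n = 4) (3.95, adjusted p 1.7e-05), and Spp1, which other liver cells also make, had a mean of 349.9 in TgL and 917 in TgLC livers without passing, whereas Krt19 had a mean of 21.1 in TgL and 11.9 in TgLC livers and Epcam one of 18.5 and 8.83. The part of any of these cells in the Ly6d level was not tested.

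The nasal gland and olfactory list is given beside Obp2a because odorant-binding proteins are known from there. It does not show which cells of these livers made Obp2a. Of 5 genes in the table, 4 were tested. Cyp2g1 fell by 4.75 (adjusted p 4.7e-05), from 88.9 to 2.52 normalized counts, and the other 3 did not pass. This is 25% called against 31.2% of all genes. The list sum was 132 to 153 in TgL and 58.0 to 69.8 in TgLC livers, a fall carried by Cyp2g1. Of the other 3 tested genes, Vmo1 was higher in TgLC livers, at a log2 difference of 0.74. Gnal and Adcy3 were lower, at -0.61 and -0.67. Cyp2g1 thus went against Obp2a, and the rest of the list gave no clear direction.

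Of 10 neutrophil markers 3 were tested and all 3 rose, where 16.2% of all genes tested were called higher. S100a8 rose by 2.61 (adjusted p 0.0048), S100a9 by 2.14 (adjusted p 0.011) and Retnlg by 3.44 (adjusted p 0.0021). S100a8 and Retnlg reached the minimum through TgLC livers alone, and the other 7 markers stayed under it. The list sum was 9.95 to 57.1 normalized counts in TgL and 83.1 to 163 in TgLC livers. Mpo was at 0 to 2.02 and Elane at 0 to 12.1 in every liver, although Prtn3, the granule gene of the same cells, was at 422 to 1525 in TgLC livers. Of 11 macrophage markers C1qb alone rose, a call that 7 of 14 alternatives lost. This is 9.09% called against 31.2% of all genes. The list sum was 6456 to 8447 in TgL and 5243 to 8612 in TgLC livers. Of 12 endothelial and stellate markers Pecam1, Des and Dcn rose, so 25% were called. The Pecam1 call was lost in 6 of 14 alternatives, and those of Des and Dcn under library totals and without TgL 1. The list sum was 6086 to 6786 in TgL and 5597 to 9806 in TgLC livers. The part of these cells in the levels of the 3 genes was not tested.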

How the data were processed

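The submitters' processing notes name fastp, HISAT2 2.0.5, featureCounts 1.5.0-p3 and, for normalization, DESeq2 1.20.0. The build, annotation and strand option that the authors used were not given in the sources used here. The deposited values are a normalized signal, the counts per gene divided by a DESeq2 size factor per liver. Dividing by the value of 1 read gave whole reads for 100% of the values within 1e-06.

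Symbols came from GENCODE M21 (22679 of 23594 matched, 915 without), sequences and gene order from RefSeq. The 13145 genes whose mean reached 10 normalized counts (10449 were left out) were fitted with limma 3.58.1 in R 4.3.3 on log2(normalized count + 1), with genotype as the only term, an intensity trend and Benjamini-Hochberg adjustment over all genes tested. Called genes had an adjusted p under 0.05. Alternatives were pseudocounts of 0.5 and 5, no filter, edgeR 4.0.16 and DESeq2 1.42.0 on the recovered reads, library totals, each liver left out, and the 4 livers of one number run. On the recovered reads edgeR called 4208 and DESeq2 4451 genes. The scripts were tested on simulated data.

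The 3 genes and all lists were chosen with earlier results of these data known. Further genes named were the 5 nearest in profile to each gene, 3 neighbours on each side, up to 3 risers and 3 fallers per list by adjusted p, the genes next in rank, and Lif; the other list genes and top risers were named after their values were seen. Livers are separate mice numbered in accession order, which pairs nothing, and depth limits the precision of genes with few reads. A few genes of the lists are not reported here by name.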

Additional observations from a re-analysis of the deposited data

Results flagged for a closer look

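Among 73 named genes, 6 had 1 TgLC liver set apart from the other TgLC livers by more than Dixon's limit for 4 samples, which chance passes in about 1 of 20 groups. Isyna1 was set apart in TgLC 3, at 15697 normalized counts. Prtn3 was set apart in the same liver at 1525, as was Apoa2, an apolipoprotein of hepatocytes, at 30006. Lif was set apart in TgLC 4 at 25.0, where Isyna1 was at 9255. Lynx1, a neighbour of Ly6d, was set apart in TgLC 2 at 25.6, the liver with the lowest Ly6d level of its group. Ctrb1, a pancreatic protease, was at 1.00 in TgLC 4 and at 0 in the other TgLC livers.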

How the results depend on the processing

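Each of the 3 genes was higher in TgLC livers under every alternative run. The log2 difference of Isyna1 was 6.34 to 7.05 with 1 liver left out and 6.07 within the number run. That of Obp2a was 6.30 to 7.33 with 1 liver left out, 4.84 with a pseudocount of 5 and 5.63 within the run. That of Ly6d was 6.07 to 6.95 with 1 liver left out. With 1 liver left out, the genes called numbered 2586 to 4119 (2586 without TgL 1 and 2694 without TgL 2, against 4104), those of the inositol lists 7 to 14 (7 without TgL 1 and 7 without TgL 2, against 13), those of the lipocalins 6 to 8 and those of the Ly6/uPAR family 3 to 6 (3 without TgL 2, against 5), and the cause was not tested beyond the smaller number of livers. Library totals called 5452 genes, 1177 higher and 4275 lower, with 2 higher and 11 lower in the inositol lists, 6 and 3 in the lipocalins and 3 and 2 in the Ly6/uPAR family. No paired analysis was possible because the replicate numbers were given in accession order and pair no mice. Depth limits Obp2a and Ly6d in TgL livers, where they rest on 3 and 24 reads in all.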
